A study of Mus musculus with 9 samples.

Results

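Clustered protocadherins are a family of cell-surface adhesion molecules whose genes lie in 3 neighbouring clusters, alpha, beta and gamma, on mouse chromosome 18. Members were taken by symbol, as every gene of the deposited table named Pcdha, Pcdhac, Pcdhb, Pcdhga, Pcdhgb or Pcdhgc with a number. The rule found 58 of the 55487 genes, 14 in the alpha cluster, 22 in the beta cluster and 22 in the gamma cluster. Of these, 5 were C-type members (Pcdhac1, Pcdhac2, Pcdhgc3, Pcdhgc4 and Pcdhgc5), and the gamma cluster held 12 members of the A and 7 of the B subfamily. The symbol Pcdha11 stood on 2 identifiers, so the 58 genes had 57 symbols. The members span positions 36930184 to 37841873 of chromosome 18 on GRCm38 (mm10), a stretch of 911.69 kb.

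Each alpha or gamma gene has its own promoter and a large variable exon, which encodes the extracellular cadherin repeats and the membrane span and is spliced to a few constant exons that the whole cluster shares. Beta genes consist of a single exon and have no constant part. A neuron usually expresses a small, seemingly random set of the alternate alpha, beta and gamma A and B genes, chosen promoter by promoter with the help of the DNA-binding protein CTCF, whose access to these promoters is hindered by DNA methylation, whereas C-type genes are switched on by cell type. Proteins carrying the same isoforms bind each other across membranes, and in the retina the gamma cluster is known for the survival of inner retinal neurons and for self-avoidance of starburst amacrine cell dendrites. TET enzymes oxidise methylated cytosine on the way to its removal.

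Whole retinas at P21 were compared between 3 genotypes with 3 RNA-seq libraries each, on a C57 BL/6J background according to the labels. Cre- retinas were Cre negative and came from Cre- breeders. tHet retinas were heterozygous for floxed (loxp/+) Tet1, Tet2 and Tet3 and Tet tcKO retinas homozygous (loxp/loxp) for all of them, both with the Chx10-Cre-GFP transgene, which acts in retinal progenitors in a mosaic fashion. Cre-carrying animals were in-crossed, so a difference between Cre- and either other genotype cannot be told apart from a difference between breeding lines. Each library pooled the retinas of a pair of animals, and p-values measure the spread between such pools.

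Values are CPM, counts of reads on genes scaled to the same library total, from 9627927 to 21108256 reads per library, of which 1 read was worth 0.0474 to 0.104 CPM. Tet3 had 213 to 268 CPM among Cre-, 155 to 288 among tHet and 99.2 to 152 among Tet tcKO libraries, with every Tet tcKO library below every other, while Tet1 and Tet2 overlapped between the genotypes. These counts cover whole genes, so they do not show loss of the floxed exons. The ribosomal RNA gene CT010467.1 took 28.7% of the reads of Tet tcKO replicate 3 and 3.72% of those of tHet replicate 3, and at most 0.226% elsewhere, which lowers the CPM of all other genes in those libraries. Mitochondrial genes took 6.92% to 16.8% of the reads. Of the retinal cell type markers, 6 of 7 rod genes were called lower in Tet tcKO against either control, and 5 of 8 cone genes higher with 1 lower, as set out with their levels further on. In whole tissue, fewer cells of a type and less RNA per cell cannot be told apart.

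What a member's count holds follows from the overlaps between genes. The constant exons belong to every alpha or every gamma gene, and genes whose whole sequence was also covered by another gene, on either strand, were listed at 0. In the whole table, 131 of the 133 genes with at least 500 unshared bases on their own strand but none once both strands were considered were at 0 in all 9 libraries, against 16.9% of the 38403 genes with at least 500 unshared bases on both. Pcdhga10, whose constant exons are shared and whose remaining exon sequence lies opposite the gene Gm26672, was at 0 in every library, and whether it was transcribed cannot be told from these counts. The values of the alpha and gamma members therefore stand for their variable exons. Levels between genes are compared per kilobase of unshared exon sequence, except where CPM is named. Sums, shares and effective numbers use CPM, so a gene with more unshared sequence weighs more in them. Beta exons are similar in sequence to each other, so small differences among neighbours are uncertain.

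A gene was tested if it had at least 0.5 CPM in at least 3 libraries, and called if its fold change between genotypes reached an absolute log2 value (log2FC) of 1 with an adjusted p under 0.01 in limma on log2(CPM + 0.5), with Benjamini-Hochberg adjustment over all 21330 tested genes. Of the 58 members, 55 were tested. Pcdha4, which shares 2410 bases on its own strand with the read-through gene Gm42416, had 0 to 0.519 CPM, Pcdhb1 had 0 to 0.593 CPM, and Pcdhga10 had none. Over the 9 libraries, the tested members held between 74 reads (the Pcdha11 identifier ENSMUSG00000102206.5) and 5078 reads (Pcdhb19).

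The members spread over a wide range of levels. The highest mean per kilobase was that of Pcdhgb6 in Cre- libraries (8.13 CPM per kb, against 7.79 for Pcdhgc3), of Pcdhb9 in tHet libraries (9.06, against 8.22 for Pcdhgc3) and of Pcdhac2 in Tet tcKO libraries (12.8, against 10.96 for Pcdhgc3). Pcdhac2 had 3.89 CPM per kb in Cre- and 3.58 in tHet libraries. Averaged over all 9 libraries, the tested alternate alpha genes were the lowest group, from 0.341 to 1.89 CPM per kb with a median of 1.10. Beta genes ranged from 1.123 to 8.65 CPM per kb (median 3.21), gamma A genes from 1.92 to 4.85 (median 3.63) and gamma B genes from 3.34 to 7.06 (median 4.15). The C-type genes were spread across this range, since Pcdhac1 stood at 0.758 CPM per kb and Pcdhgc5 at 1.34 CPM per kb.

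In Tet tcKO retinas a single member was called. Pcdhac2, the last variable exon of the alpha cluster and the isoform known for the even spacing of serotonergic axons, rose about 3-fold, while no other member was called in either direction. In Cre- libraries it had 12.1, 12.4 and 10.8 CPM, in tHet libraries 8.71, 12.98 and 10.8 CPM, and in Tet tcKO libraries 50.8, 37.1 and 28.6 CPM. The lowest Tet tcKO library, replicate 3, was more than 2-fold above the highest control library. These values rest on 121 to 228 reads per control library and 475 to 856 reads per Tet tcKO library. The log2FC was 1.64 against Cre- (a 3.12-fold difference, SE 0.26, limma adjusted p = 0.000282) and 1.77 against tHet (3.42-fold, SE 0.26, limma adjusted p = 0.000155). Both comparisons share the Tet tcKO libraries. Pcdhac2 was called in both comparisons under every alternative setting, with a log2FC between 1.43 and 1.84 against Cre- and between 1.56 and 1.97 against tHet, where the values without CT010467.1 were 1.80 and 1.92. The gene (ENSMUSG00000102697.1) runs from 37143503 to 37187657 on chromosome 18, and its variable exon leaves 3028 unshared bases.

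Read against the whole table, 1 of 55 tested members was called against Cre-, where 3.60% of all tested genes were called (2.03% higher and 1.57% lower). Against tHet it was again 1 of 55, where 3.00% of all tested genes were called (1.39% higher and 1.61% lower). The share of members called was therefore no higher than that of all genes. Without tHet replicate 3 the counts were 2 against Cre- and 3 against tHet, and without Cre- replicate 1 or Tet tcKO replicate 2 the count against tHet was 2. All Tet tcKO libraries lay above all Cre- libraries for 1 member and below for 5, where 10.0% and 9.60% of all tested genes did, and above all tHet libraries for 1 and below for 6, where 7.35% and 9.68% did. In tHet against Cre-, no member was called by limma, edgeR or DESeq2, and none had an unadjusted p under 0.05, where 0.0422% of all tested genes were called and 4.55% had such a p. The tHet libraries lay above all Cre- libraries for 1 member and below for 1, where 5.78% and 5.37% of all tested genes did.

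The other C-type genes did not pass the test. Pcdhgc3, which is widely expressed in the nervous system and known for dendrite branching, had 14.8, 12.4 and 15.4 CPM among Cre-, 14.3, 21.3 and 9.38 CPM among tHet and 26.2, 19.8 and 13.9 CPM in Tet tcKO libraries. The genotypes overlapped, with the highest value in Tet tcKO replicate 1, and the log2FC was 0.44 against Cre- (SE 0.29, limma adjusted p = 0.563) and 0.43 against tHet. Pcdhgc4, the isoform known to be needed for neuronal survival, had 16.9 to 19.7 CPM among Cre-, 15.3 to 29.0 CPM among tHet and 16.8 to 26.7 CPM in Tet tcKO libraries, and again the groups overlapped (log2FC 0.32 and 0.11, limma adjusted p = 0.698 and 0.889).

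Pcdhac1 was low throughout, with 1.65, 2.04 and 1.76 CPM among Cre-, 1.80, 3.32 and 1.61 CPM among tHet and 1.84, 2.11 and 1.32 CPM in Tet tcKO libraries. Its log2FC of -0.05 against Cre- (SE 0.34, limma adjusted p = 0.985) lay well within its error, although it sits in the same cluster directly before Pcdhac2. Pcdhgc5, which is known to interact with GABA-A receptors, varied more within a genotype than between genotypes, from 2.94 to 9.67 CPM in Cre- and from 3.37 to 8.17 CPM in Tet tcKO libraries (log2FC -0.16 and -0.48, limma adjusted p = 0.942 and 0.621).

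**Figure D1:**
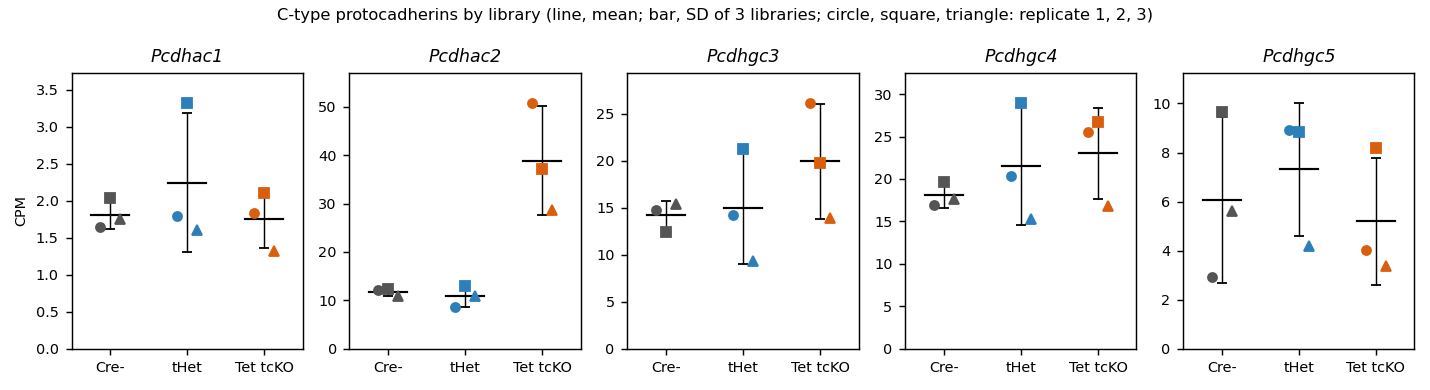
CPM of the 5 C-type members in each library, with the genotype on the horizontal axis, the mean as a line and the SD of 3 libraries as a bar. For Pcdhac2 the 3 Tet tcKO libraries lie at 28.6 to 50.8 CPM and the 6 control libraries at 8.71 to 12.98 CPM, whereas the genotypes overlap for the other 4 genes.

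The make-up of the alpha cluster differed accordingly. Pcdhac2 accounted for 31.1%, 25.5% and 24.4% of the summed alpha CPM in Cre- libraries and for 21.0%, 24.5% and 28.7% in tHet libraries. In Tet tcKO libraries it accounted for 67.7%, 55.4% and 57.9%. Being a ratio within a library, this share does not depend on the ribosomal reads, and the Tet tcKO and control libraries did not overlap. Summed over the cluster, alpha CPM was 43.9 ± 4.83 for Cre-, 44.0 ± 7.98 for tHet and 63.8 ± 13.1 for Tet tcKO (SD, n = 3 libraries each). With Pcdhac2 left out the sum was 32.2 ± 4.81, 33.2 ± 6.59 and 24.97 ± 4.55 CPM in the same order (SD, n = 3), and the ranges overlapped.

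The evenness of the CPM over members can be stated as an effective number of members, the number of equally high genes that would give the same Shannon entropy. The number was taken from CPM, not CPM per kilobase. It therefore also depends on unshared length, which ran from 404 (Pcdha4) to 3028 bases (Pcdhac2) in the alpha cluster. For the alpha cluster it was 9.48 to 10.6 in Cre-, 9.50 to 10.8 in tHet and 3.99 to 5.81 in Tet tcKO libraries. Among the 12 alternate alpha genes alone it was 9.71 to 10.3, 9.24 to 10.1 and 9.35 to 10.1, so the genotypes overlapped once the C-type genes were set aside. The effective number over the beta genes was 16.6 to 17.3 in Cre-, 16.2 to 16.7 in tHet and 16.9 to 17.7 in Tet tcKO libraries, so Tet tcKO lay above tHet and overlapped with Cre-. Over gamma A and B genes it was 16.2 to 16.6, 16.2 to 16.6 and 15.9 to 16.5, and all genotypes overlapped.

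**Figure D2:**
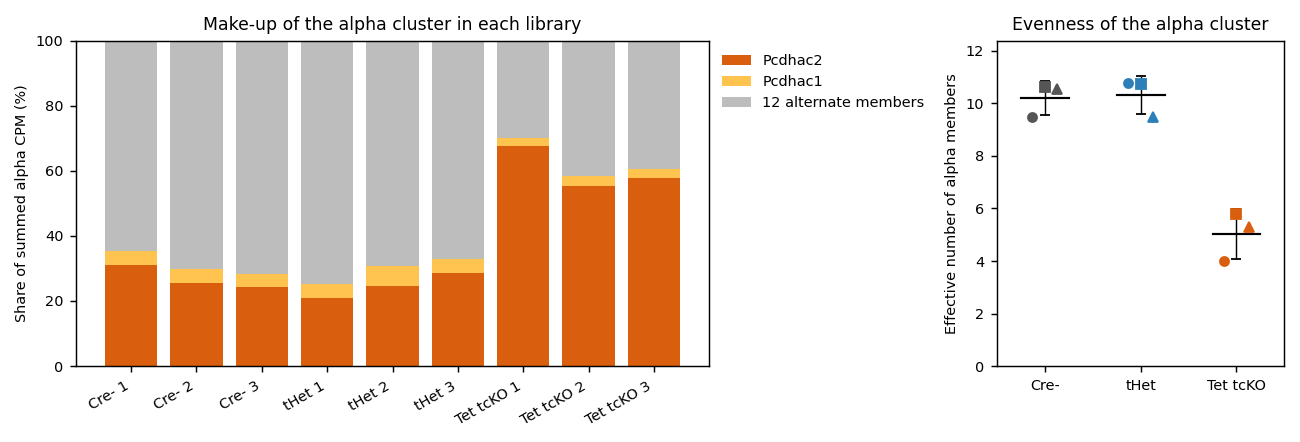
Left, share of the summed alpha CPM (%) taken by Pcdhac2, Pcdhac1 and the 12 alternate members in each library; right, effective number of alpha members by genotype, with the mean as a line and the SD of 3 libraries as a bar. Pcdhac2 takes 21.0% to 31.1% in the control libraries and 55.4% to 67.7% in the Tet tcKO libraries.

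The alternate alpha genes, which are chosen promoter by promoter, had mostly negative fold changes, none of which was called. Of the 11 tested, 10 had a log2FC below 0 against Cre- and 9 against tHet, with medians of -0.28 and -0.30, where the medians over all tested genes were 0.00 and -0.06. Leaving out single libraries moved the medians from -0.44 (without Tet tcKO replicate 2) to -0.19 (without Tet tcKO replicate 3) against Cre-, with -0.42 without Cre- replicate 1. Against tHet they moved from -0.42 (without tHet replicate 3) to -0.10 (without tHet replicate 2), with -0.18 without Tet tcKO replicate 3. The medians over all tested genes moved too. Against Cre- they were -0.10 without Tet tcKO replicate 2 and 0.14 without Tet tcKO replicate 3. Against tHet they were -0.14 without tHet replicate 3 and 0.001 without tHet replicate 2. Pcdha9 had the lowest log2FC of the cluster against Cre-. Its values were 4.59, 6.49 and 5.94 CPM among Cre-, 5.83, 6.02 and 3.79 CPM among tHet and 3.56, 4.22 and 1.69 CPM in Tet tcKO libraries. All Tet tcKO libraries lay below all Cre- libraries but overlapped with tHet, and neither difference passed (log2FC -0.82 and -0.69, SE 0.34, limma adjusted p = 0.202 and 0.296). Pcdha5 had 1.37, 1.71 and 1.99 CPM in Tet tcKO libraries, all below the 2.04 to 3.60 CPM of the 6 control libraries, with a log2FC of -0.65 against Cre- (limma adjusted p = 0.344) from 23 to 52 reads per library. Pcdha8 ranged from 0.119 CPM, which is 2 reads, to 2.04 CPM among Tet tcKO libraries alone. Its log2FC was -0.77 against Cre- and -1.20 against tHet (SE 0.44, limma adjusted p = 0.444 and 0.129). The latter was the lowest of all tested members against tHet. None of these differences passed the test, and the part of read depth in this was not tested.

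Beta genes, each a single exon without the shared constant part, were the largest contributors by summed CPM, with means of 322 ± 52.2 CPM for Cre-, 339 ± 55.5 CPM for tHet and 272 ± 74.5 CPM for Tet tcKO (SD, n = 3). With CT010467.1 left out of the library totals, the beta sum of Tet tcKO replicate 3 was 289 CPM in place of 206. The ratio of the Tet tcKO mean to the Cre- mean was then 0.93 in place of 0.85, and to the tHet mean 0.87 in place of 0.80. Summed CPM covers the whole beta gene but only the variable exons of alpha and gamma genes. Per kilobase over the 9 libraries, the beta median of 3.21 CPM lay below those of gamma A (3.63) and gamma B (4.15) genes. Beta genes made up 50.8% to 52.8% of the summed member CPM in Tet tcKO libraries, within the range of 46.0% to 60.0% in the 6 control libraries. None of the 21 tested was called. A log2FC below 0 was found for 15 of 21 in either comparison, with medians of -0.25 and -0.28. Without Tet tcKO replicate 3, these medians were -0.06 and -0.09, and without Tet tcKO replicate 2 they were -0.44 and -0.48. Against Cre- the median was -0.39 without Cre- replicate 1 and -0.14 without Cre- replicate 2, and against tHet it was -0.12 without tHet replicate 2. The medians over all tested genes moved as well. They were 0.14 and 0.08 without Tet tcKO replicate 3, and -0.10 and -0.15 without Tet tcKO replicate 2. Against Cre- they were -0.08 without Cre- replicate 1 and 0.07 without Cre- replicate 2.

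Pcdhb19 had the highest mean CPM of all members in Cre- and in tHet, while in Tet tcKO Pcdhac2 did. It had 32.6, 51.2 and 41.2 CPM among Cre-, 38.1, 50.9 and 33.9 CPM among tHet and 23.6, 42.1 and 20.4 CPM in Tet tcKO libraries, so the groups overlapped (log2FC -0.58 and -0.56, limma adjusted p = 0.287 and 0.288). Pcdhb14 had the lowest beta log2FC in both comparisons. In Cre- it had 25.7, 31.1 and 32.9 CPM, in tHet 31.8, 47.1 and 31.3 CPM and in Tet tcKO 14.4, 25.7 and 13.2 CPM. The Tet tcKO libraries were all below tHet, while Tet tcKO replicate 2 just exceeded Cre- replicate 1. The log2FC was -1.06 against tHet (SE 0.26, limma adjusted p = 0.0169) and -0.79 against Cre- (SE 0.26, limma adjusted p = 0.0855), short of a call in both. It was called against tHet without Cre- replicate 1 (limma adjusted p = 0.00890), without tHet replicate 3 (0.00695) and without Tet tcKO replicate 2 (0.00237), and the adjusted p over all alternatives ranged from 0.000149 to 0.113. Pcdhb2 had the highest beta log2FC, 0.40 against Cre- (SE 0.30, limma adjusted p = 0.629), with 9.92, 8.76 and 5.42 CPM in Tet tcKO and 5.004 to 6.35 CPM in the 6 control libraries.

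Along the beta cluster the fold changes followed gene order to some degree. From Pcdhb2 at the 5′ end to Pcdhb22 at the 3′ end, the rank correlation of position with log2FC was -0.56 against Cre- and -0.65 against tHet over 21 genes, which share the same libraries and are not independent points. The genes before Pcdhb10 lay between -0.44 and 0.41 in both comparisons, and Pcdhb13, Pcdhb14 and Pcdhb15 formed the lowest stretch, with log2FC of -0.78, -0.79 and -0.68 against Cre-. Both comparisons share the Tet tcKO libraries, so they are not separate observations of this order.

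Of the member groups, gamma A and B genes had the lowest median log2FC. Every one of the 18 tested had a log2FC below 0 against Cre- and against tHet, with medians of -0.49 and -0.66, and none was called. These medians changed when single libraries were left out, and so did the median over all tested genes. Against Cre-, the gamma A and B median was -0.20 without Cre- replicate 2, with 13 of 18 below 0. It was -0.27 without Tet tcKO replicate 3, with 17 of 18 below 0, -0.78 without Cre- replicate 1 and -0.82 without Tet tcKO replicate 2. The all-gene medians were 0.07, 0.14, -0.08 and -0.10 in the same order. Against tHet the gamma A and B median ran from -0.47 without tHet replicate 1 to -1.00045 without tHet replicate 3. The all-gene medians there were -0.03 and -0.14. Without Tet tcKO replicate 3, 16 of 18 were below 0 against tHet. Without tHet replicate 2, or with CT010467.1 left out of the library totals, 17 of 18 were. Their summed level was 136, 304 and 200 CPM among Cre-, 279, 275 and 136 among tHet and 119, 200 and 101 among Tet tcKO libraries. The ranges overlapped, since Cre- replicate 1 and tHet replicate 3 lay below Tet tcKO replicate 2. With CT010467.1 left out of the library totals, Tet tcKO replicate 3 had 141 CPM in place of 101. Other genes inside the 3 clusters, which are not members, also had mostly negative values. Of 17 tested, 14 had a log2FC below 0 against Cre- (median -0.40) and all 17 against tHet (median -0.58). A shift in this direction was therefore not particular to gamma A and B genes. All clusters together, 10 of the 55 tested members had an unadjusted p under 0.05 against Cre-, and 10 against tHet. Over all tested genes, 16.1% and 17.5% had such a p. Of the 10 members, 9 had a log2FC below 0 in each comparison, and the share of all genes in that direction is not given.

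**Figure D3:**
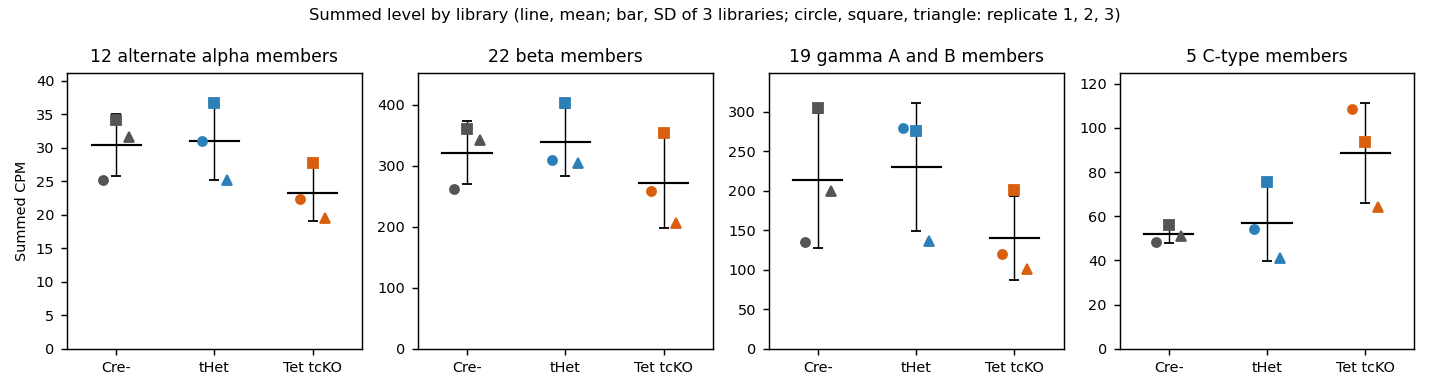
Summed CPM of the 12 alternate alpha, 22 beta, 19 gamma A and B and 5 C-type members in each library, with the mean as a line and the SD of 3 libraries as a bar. The C-type sum is 41.2 to 75.4 CPM in control and 64.0 to 108 CPM in Tet tcKO libraries, where only tHet replicate 2 reaches into the Tet tcKO range; in the other 3 plots the Tet tcKO range overlaps both controls.

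The lowest log2FC of the gamma cluster lay at its 5′ end. Pcdhga3 had 15.0, 17.9 and 18.2 CPM among Cre-, 14.5, 15.9 and 7.06 CPM among tHet and 9.26, 7.31 and 3.85 CPM in Tet tcKO libraries. Tet tcKO lay wholly below Cre- but overlapped with tHet because of tHet replicate 3. The log2FC of -1.33 against Cre- (SE 0.33, limma adjusted p = 0.0145) was the lowest of all members and missed the call by its p, and against tHet the value was -0.83 (limma adjusted p = 0.170). It was called against Cre- under 8 of 21 alternatives, among them without tHet replicate 3 (limma adjusted p = 0.00162) and with edgeR's quasi-likelihood test (adjusted p = 0.00642), and the adjusted p ranged from 4.09e-05 to 0.0974.

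Pcdhga1, the first gene of the cluster, was the only gamma member whose Tet tcKO libraries lay below all 6 control libraries. Its values were 9.77, 20.2 and 13.3 CPM among Cre-, 15.9, 14.2 and 9.52 CPM among tHet and 5.23, 9.49 and 5.30 CPM in Tet tcKO libraries. Tet tcKO replicate 2 at 9.49 CPM and tHet replicate 3 at 9.52 CPM nearly met, so the separation is narrow. The log2FC was -1.05 against Cre- (SE 0.31, limma adjusted p = 0.0504) and -0.96 against tHet (limma adjusted p = 0.0849). Over all clusters, 1 tested member lay above all control libraries (Pcdhac2) and 2 lay below (Pcdha5 and Pcdhga1), where 5.32% and 4.82% of all tested genes did.

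The genes between and after them did not share these values evenly. In gene order, Pcdhga2, Pcdhgb1, Pcdhga4 and Pcdhgb2, described here after their values were seen, had log2FC of -0.74, -1.02, -0.36 and -0.82 against Cre- and -0.28, -0.91, -0.41 and -1.15 against tHet, none of them called. For Pcdhgb2 the limma adjusted p against tHet was 0.0522, and it was called without tHet replicate 3. The long noncoding RNA gene 3222401L13Rik, also named after its values were seen, lies on the same strand and ends 50 bases before Pcdhga1, at 37655451 to 37661742. It had 14.5, 26.5 and 17.1 CPM among Cre-, 20.5, 17.3 and 9.43 CPM among tHet and 7.13, 9.69 and 5.42 CPM in Tet tcKO libraries, with Tet tcKO below all Cre- libraries and overlapping tHet. Its log2FC was -1.32 against Cre- (SE 0.31, limma adjusted p = 0.0117) and -1.01 against tHet (limma adjusted p = 0.0664), also short of a call, and it was called against Cre- under 10 of 21 alternatives. Of the other genes inside the clusters, antisense transcripts and pseudogenes for the most part, none of the 17 tested, this one included, was called in any comparison.

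**Figure D4:**
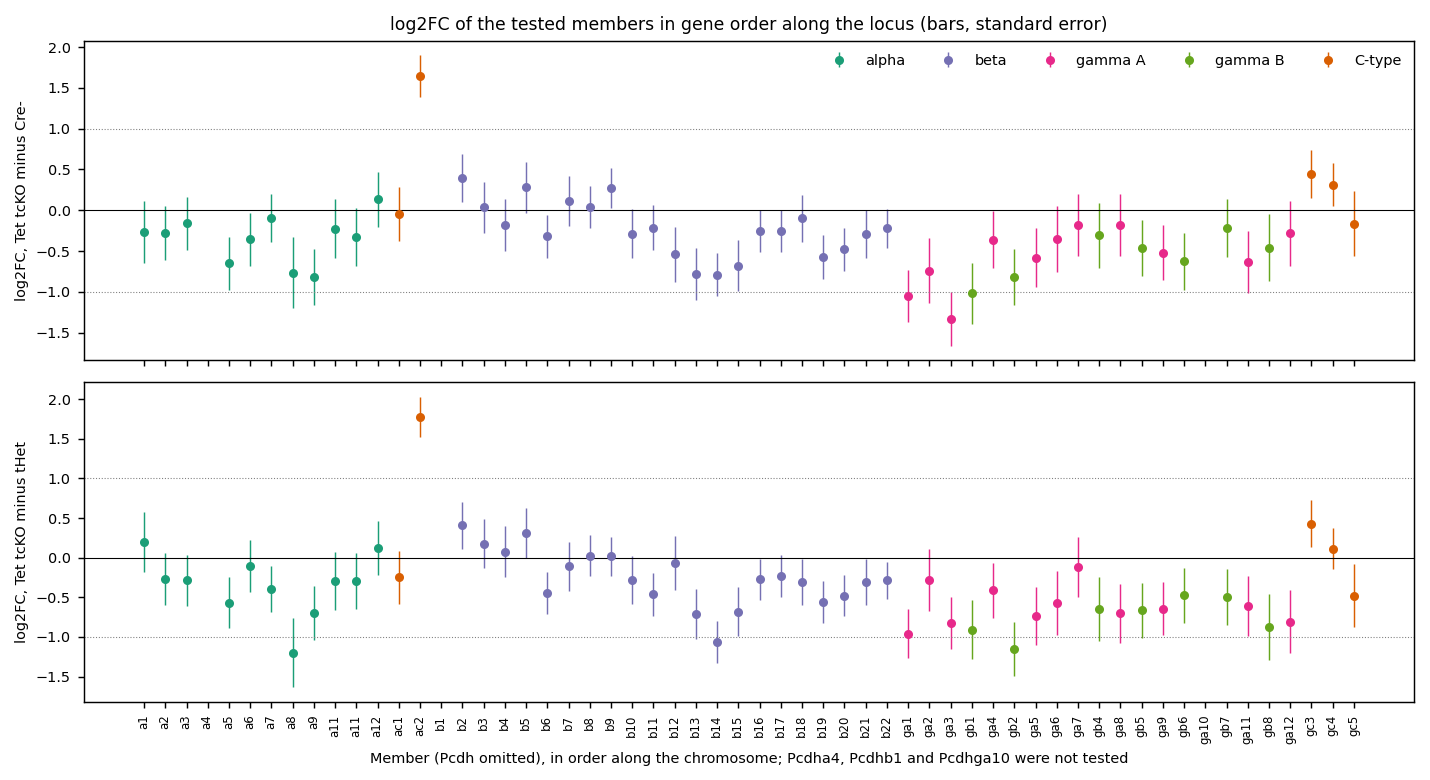
log2FC of the 55 tested members in gene order, with the standard error as a bar, against Cre- (top) and tHet (bottom); dotted lines mark a log2FC of 1 and -1. Pcdhac2 stands alone at 1.64 and 1.77, and the 18 gamma A and B genes lie below 0 with all 9 libraries in the fit.

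Along the gamma cluster, log2FC against Cre- was closer to 0 towards the 3′ end. The rank correlation of position with log2FC was 0.53 over the 18 gamma A and B genes against Cre- and 0.14 against tHet, again over genes measured in the same libraries. Pcdhga12, the last of them, had 5.77, 21.8 and 13.6 CPM among Cre-, 21.6, 22.5 and 10.99 CPM among tHet and 6.59, 16.2 and 8.67 CPM in Tet tcKO libraries. Here the difference between Cre- replicates 1 and 2 exceeded that between any genotype means, and the log2FC was -0.28 against Cre- and -0.81 against tHet (limma adjusted p = 0.873 and 0.301).

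The libraries of a genotype differed most over the gamma A and B genes. The coefficient of variation within a genotype had a median of 39.7% over the gamma A and 41.6% over the gamma B genes, against 24.2% for alternate alpha, 24.9% for beta and 24.7% for all tested genes. The same libraries were high or low for nearly all of them. Of the 18 tested, Cre- replicate 1 was the lowest Cre- library for 16 and replicate 2 the highest for 17. tHet replicate 3 was the lowest of its genotype for all 18, and Tet tcKO replicate 2 the highest for 15. Among all 55 tested members, these 18 included, Cre- replicate 1 was lowest for 44, tHet replicate 3 for 41 and Tet tcKO replicate 3 for 36. Among the 21 beta genes, Cre- replicate 1 was lowest and Tet tcKO replicate 2 highest for 17 each, while tHet replicate 3 was lowest for 11. The TMM scaling factor, taken over all tested genes, was also lowest in Cre- replicate 1 (0.902), tHet replicate 3 (0.904) and Tet tcKO replicate 3 (0.780). It was highest in replicate 2 of each genotype (1.07, 1.15 and 1.14). Such an order of libraries was therefore not particular to the members. The mitochondrial share of the reads was 16.8%, 10.98% and 12.997% in Cre-, 11.1%, 6.92% and 14.0% in tHet and 12.8%, 10.1% and 8.53% in Tet tcKO libraries. Within Cre- and tHet the library with the lowest gamma sum had the highest mitochondrial share. Within Tet tcKO that library, replicate 3, had the lowest share, with 28.7% of its reads on CT010467.1. The part of the mitochondrial share in the spread was not tested.

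**Figure D5:**
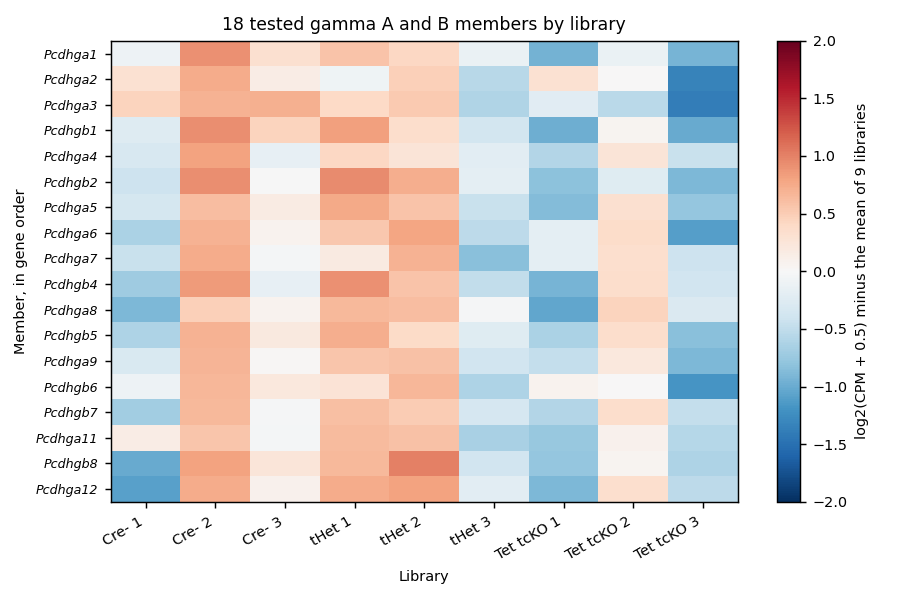
log2(CPM + 0.5) of the 18 tested gamma A and B members in each library minus the member's mean over 9 libraries, members in gene order. Cre- replicate 2 and tHet replicates 1 and 2 are high and Cre- replicate 1, tHet replicate 3 and Tet tcKO replicates 1 and 3 are low for most members.

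In tHet against Cre-, the medians were -0.01 for alpha, 0.00 for beta and 0.15 for gamma members, beside 0.06 for all tested genes. The summed gamma level was 251 ± 88.5 CPM in Cre- and 274 ± 94.3 CPM in tHet (SD, n = 3), a difference far inside the spread. For comparison, Tet tcKO had 188 ± 61.2 CPM, of which C-type genes made up 31.8%, 21.4% and 25.3%, against 12.1% to 20.3% in the 6 control libraries. This share did not overlap between Tet tcKO and the controls, whereas the summed gamma level did. The separation is narrow, with 21.4% in Tet tcKO replicate 2 and 20.3% in Cre- replicate 1.

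Genes outside the clusters that share family or pathway were read from the same fit. Of 12 nonclustered protocadherins, which act as single adhesion molecules without isoform choice, 2 were called higher against Cre- and 1 against tHet. Over all tested genes, 2.03% and 1.39% were called higher. Pcdh11x had 23.4 to 31.6 CPM among Cre-, 22.3 to 35.7 CPM among tHet and 109, 81.8 and 49.98 CPM in Tet tcKO libraries (log2FC 1.46 and 1.39, limma adjusted p = 0.00132 and 0.00230). Pcdh15, a part of the tip link of hair cells that photoreceptors also express, had 270 to 475 CPM among Cre-, 321 to 694 among tHet and 864 to 1216 among Tet tcKO libraries, and was called against Cre- (log2FC 1.51, limma adjusted p = 0.00253) but not against tHet (log2FC 1.02, limma adjusted p = 0.0463). The list had a median log2FC of 0.35 against Cre-, while the clustered members had -0.29.

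None of the 20 regulators of the clusters on the list was called in any comparison. This covers CTCF, the cohesin subunits and loaders, the DNA methyltransferases and the chromatin repressors Smchd1 and Setdb1. Ctcf had 80.2 to 105 CPM among Cre-, 76.8 to 94.5 CPM among tHet and 88.5 to 101 CPM in Tet tcKO libraries (log2FC 0.02 against Cre-, limma adjusted p = 0.992). Wapl, which releases cohesin from DNA, came closest to a call. It had 379 to 436 CPM among Cre-, 354 to 399 among tHet and 176 to 241 among Tet tcKO libraries, with all Tet tcKO libraries below all others and a log2FC of -0.95 against Cre- (limma adjusted p = 0.00800), just under the fold threshold. Dnmt3b, which methylates alternate promoters early in development, had only 2.89 to 6.39 CPM in all 9 libraries.

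Of 23 signalling partners and related adhesion genes, which include the kinases Ptk2 and Ptk2b that protocadherin tails bind, Prkca was called lower against Cre- (487 to 546 CPM among Cre-, 349 to 581 among tHet and 157 to 322 among Tet tcKO libraries, log2FC -1.34, limma adjusted p = 0.00310), and no other. Prkca is also a marker of rod bipolar cells. Over all tested genes, 1.57% were called lower against Cre-. Ptk2b had the highest log2FC of the list against Cre-, short of a call (1.43, limma adjusted p = 0.0304). Its values were 1.08 to 3.83 CPM among Cre-, 3.31 to 5.19 among tHet and 4.94 to 11.3 among Tet tcKO libraries. Tet tcKO lay above Cre- and overlapped with tHet (log2FC 0.75, limma adjusted p = 0.342). The 10 flanking genes, within or next to the clusters, included no call, with log2FC from -0.43 to 0.24 against Cre-.

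Summed levels of cell type markers differed between genotypes for some cell types, and their part in the values of the members was not tested. The summed level of 7 rod markers was 16900.0 to 19159 CPM among Cre-, 15585 to 18184 among tHet and 2930 to 6319 among Tet tcKO libraries, and that of the 8 cone markers 555 to 693, 626 to 761 and 1642 to 2487 CPM. For the 8 amacrine markers the ranges were 564 to 668, 468 to 626 and 426 to 885 CPM, with 1 called lower against either control, and for the 7 ganglion cell markers 984 to 1480, 1052 to 2358 and 652 to 1022 CPM, with 0 called against Cre- (2 at an unadjusted p under 0.05) and 1 lower against tHet. The 6 bipolar markers summed to 1036 to 1228, 762 to 1175 and 808 to 1375 CPM (1 higher and 1 lower against Cre-, 1 higher against tHet), and the 3 horizontal cell markers to 27.5 to 42.1, 29.3 to 40.8 and 19.3 to 36.3 CPM with no call. The 6 Muller glia markers summed to 1534 to 1974, 1422 to 1762 and 1177 to 1415 CPM (2 lower and 1 higher against either control).

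Of cells from outside the neural retina, the 6 microglia markers summed to 18.7 to 26.4 CPM among Cre-, 26.9 to 37.3 CPM among tHet and 31.0 to 61.1 CPM in Tet tcKO libraries (1 called higher against Cre-), the 3 pigment epithelium markers to 15.7 to 53.2, 40.7 to 54.3 and 7.11 to 11.5 CPM (2 lower against either control) and the 3 endothelial markers to 11.5 to 12.96, 9.90 to 19.01 and 9.87 to 17.8 CPM with no call. None of the markers was at 0 in any library.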

How the data were processed

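RNA-seq of P21 retinas covered 9 libraries, 3 per genotype, grouped by the genotype in the labels. The authors removed ribosomal RNA, made stranded libraries, trimmed reads with Trim Galore 0.6.7, aligned them to mm10 with STAR 2.7.0f, counted them with HTSeq 0.11.2 and deposited CPM values per gene. Strand and overlap settings and the annotation release of the counting are not given in the sources used here. The log2 fold changes, p-values and false discovery rates of edgeR comparisons that the authors deposited beside them were not used. All positive CPM values (100%, within 0.01 of a whole read) were whole multiples of 1 read, so reads on genes were recovered.

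The filter of 0.5 CPM, reached in 3 or more libraries, left 21330 genes. limma 3.58.1 (eBayes with trend, R 4.3.3) was fitted to log2(CPM + 0.5) of all 9 libraries together. The smallest exact permutation p for 3 libraries against 3 is 0.1, so single sums and shares are given without a test. Named members were all C-type members, every called member, the highest level and the highest and lowest log2FC against Cre- in each cluster, and members whose Tet tcKO libraries lay beyond all control libraries. The members, gene lists and tests were chosen with earlier results of these data known. Exon overlaps and positions came from GENCODE release 21 for mouse (57 of 58 member identifiers matched with version).

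Alternatives were pseudocounts of 0.1 and 1, no filter, a filter at 1 CPM, TMM and upper-quartile (75th percentile) scaling, edgeR 4.0.16 quasi-likelihood and DESeq2 1.42.0 on recovered reads, a replicate block, only the 6 libraries compared, each library left out, an adjusted p under 0.05, no fold threshold and leaving out CT010467.1. A fit after removing the GC content trend per library was chosen after seeing the data. The tests were tested on simulated data. Libraries of a genotype differed by more than sampling noise, so each counted as 1 sample. Figures were drawn with matplotlib 3.10.9. Member sequences and DNA methylation were not analysed here. Of the rod marker list, 1 gene is not reported here.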

Additional observations from a re-analysis of the deposited data

How the results depend on the processing

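Pcdhac2 was called in both Tet tcKO comparisons under every alternative, and no member was called in tHet against Cre- under any. Against Cre-, where 1 member was called, the count was 2 with TMM scaling, upper-quartile scaling, edgeR, only the 6 libraries compared, the GC trend removed and an adjusted p under 0.05, each time Pcdhga3 in addition, and 3 with DESeq2, which added Pcdhga1. Against tHet, where 1 was called, it was 2 with upper-quartile scaling and an adjusted p under 0.05 (Pcdhb14) and 3 with DESeq2 and only the 6 libraries compared (Pcdhb14 and Pcdhgb2). Leaving out single libraries gave 1 to 2 members against Cre- and 1 to 3 against tHet, with 2 and 3 without tHet replicate 3 and 2 against tHet without Cre- replicate 1 or Tet tcKO replicate 2. The cause was not tested.

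Replicate numbers are shared between genotypes but name different animals, and deviations of same-numbered libraries correlated at 0.111 on average (-0.35 to 0.56), so they were not taken as pairs. With the replicate block, 3 members were called in either Tet tcKO comparison, Pcdhga1 and Pcdhga3 with Pcdhac2 against Cre- and Pcdhb14 and Pcdhgb2 with Pcdhac2 against tHet.

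The median log2FC of beta members against tHet moved between -0.48 and -0.0865 when single libraries were left out. The gamma median moved further, from -0.74 without Cre- replicate 1 to -0.0623 without Cre- replicate 2 against Cre- and from -0.96 to -0.43 against tHet, but its spread between libraries was also larger (SD 0.566 and 0.543). The medians of all tested members lay between -0.55 and -0.14 against Cre- and between -0.57 and -0.18 against tHet. With single libraries left out, the medians over all tested genes lay between -0.10 and 0.14 against Cre-. Against tHet they lay between -0.15 and 0.08. Without CT010467.1 the median over all tested genes shifted from 0.00 to 0.14 against Cre- and from -0.06 to 0.07 against tHet, and 73.3% and 66.4% of calls over all genes were higher in place of 56.5% and 46.4%.

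Small values changed sign. For Pcdhac1 against Cre- the log2FC was 0.0763 without CT010467.1 and -0.16 to 0.10 when single libraries were left out, and against tHet it was -0.41 to 0.0195. The corresponding ranges were -0.10 to 0.35 for Pcdhgc4 against tHet and -0.56 to 0.22 for Pcdhgc5 against Cre-. Low members such as Pcdha8 rest on few reads, 2 of them in Tet tcKO replicate 1.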
